A study of Mus musculus with 8 samples.

Results

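Mature neutrophils of the mouse tongue were sought among single cells by the transcripts of Csf3r and Hdc, and 1226 of the 42550 deposited cell barcodes met the rule. The cells were chosen by measured counts. A cell had to hold 200 to 5500 genes, at most 30000 unique molecular identifiers (UMIs, 1 per captured transcript), at most 7% mitochondrial UMIs, and less than 0.5% of its UMIs from Krt5, Krt13, Krt14, Krt15 and Krt6a together. It also had to hold 10 or more UMIs of S100a8 plus S100a9, at least 2 of the 4 genes Csf3r, Treml4, Hdc and Cxcr2, and fewer than 3 of the 5 genes Ngp, Camp, Ltf, Cd177 and Ly6g. Of the 29880 cells that passed the limits on genes, UMIs and mitochondria, 4.10% met the rule. The genes of the rule are described below without a test.

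Neutrophils are made in bone marrow under granulocyte colony-stimulating factor, whose receptor is Csf3r, and fill their granules in order: primary, secondary and then tertiary granule proteins. Mature cells shut down most granule genes, enter blood and follow CXCL chemokines into tissue through Cxcr2, while Cxcr4 holds young cells in marrow and returns as cells age. Hdc makes histamine, and S100a8 and S100a9 form the abundant cytosolic protein calprotectin. Ngp, Camp, Ltf, Cd177 and Ly6g serve here for the late marrow stages and are called marrow genes below. The authors found LY6G-positive granulocytic cells in the tongue too, so the name alone does not place a cell at a marrow stage.

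All mice carried Krt14-CreERT/LSL-rtTA, in which tamoxifen given to the tongue starts rtTA in Krt14-expressing basal cells and doxycycline feed then drives any tetON transgene; the methods add an H2B-GFP reporter. Group N had no further transgene, E had tetON_E6-E7 (2 oncogenes of human papillomavirus 16), Y had tetON_YAP1S127A (a YAP1 protein that escapes Hippo inhibition), and EY had both. Each group had 2 libraries from tongue epithelium of adult littermates aged 8 to 16 weeks, taken at day 15 of induction and sorted for live cells. The transgenes act in keratinocytes, so neutrophils were sampled as cells around the altered epithelium, and 1 of the N libraries (N2) bears the numbers of 2 animals. The libraries are named N1 to EY2. P-values measure the spread between these libraries.

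The libraries held 2916 to 8139 barcodes and 46483469 to 102427359 UMIs. Mouse Yap1 measured 17.6 to 33.0 CPM (counts scaled to the same total in every library) in the other filtered cells of N and E and 40.7 to 318 CPM in those of Y and EY. No barcode of a gated cell was that of a gated cell in another library, among 237 barcodes shared over the 28 pairs of libraries. EY1 stood apart in its T cells, of which 60.2% held 10 or more S100a8 plus S100a9 UMIs, against 0 to 1.57% in each other library. At most 0.333% of T cells in any library held 2 of the 4 mature genes. The source of the S100a8 and S100a9 UMIs in T cells was not tested.

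The gated cells were spread unevenly, with 34 and 269 in N, 108 and 93 in E, 244 and 40 in Y, and 370 and 68 in EY, each pair with the library numbered 1 first. They took 0.730%, 10.4%, 1.96%, 5.27%, 4.06%, 1.49%, 13.9% and 1.69% of filtered cells in that order. Both the lowest and the second highest share therefore came from the control group. The libraries with YAP averaged 5.28% ± 5.85 (SD, n = 4) and those without 4.59% ± 4.32 (SD, n = 4), a difference of 0.693 percentage points (exact permutation test, two-sided, p = 0.886, adjusted over 6 tests 0.886). With and without E6-E7 the means were 5.70% ± 5.69 and 4.17% ± 4.39 (SD, n = 4 each; exact permutation p = 0.571, adjusted 0.789). Over low-keratin cells, the means were 7.57% ± 6.62 with YAP and 9.30% ± 4.58 without (exact permutation p = 0.657, adjusted 0.789), and 10.3% ± 5.36 with E6-E7 and 6.61% ± 5.41 without (exact permutation p = 0.343, adjusted 0.789). These differences were smaller than the spread between libraries.

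The balance between mature and immature neutrophils separated by YAP in the cells as sequenced, and overlapped in cells thinned to equal depth. The immature gate took cells past the same limits with 3 or more of the 5 marrow genes, 1127 in all, of which 930 also held 2 or more mature genes. It held 0 and 4 cells in N, 0 and 1 in E, 178 and 4 in Y, and 602 and 338 in EY. The mature share of both gates was 100% and 98.5% in N, 100% and 98.9% in E, 57.8% and 90.9% in Y, and 38.1% and 16.7% in EY. With 34 and 108 gated cells, the 0 counts in N1 and E1 allow an immature share of up to 8.82% and 2.78%. All 4 YAP libraries lay below all 4 others, by 48.5 percentage points on average (50.9% ± 31.5 against 99.4% ± 0.748, SD, n = 4 each; exact permutation p = 0.0286, the smallest that 70 labellings allow, adjusted over 6 tests 0.171). The test alone passed 0.05 and the adjusted value did not. With every cell thinned to 500 UMIs before gating, Y2 held 15 mature and 0 immature cells, so the arms overlapped, and the difference was -41.5 points (exact permutation p = 0.143). Unthinned, the median mature-gate cell held 3330 to 11965 UMIs in the YAP libraries and 1518 to 3601 in the others. Y2, with 44 gated cells, was the YAP library nearest to the others. E6-E7 gave means of 63.4% ± 42.5 and 86.8% ± 19.7 (SD, n = 4 each; exact permutation p = 0.4, adjusted 0.789).

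**Figure D1:**
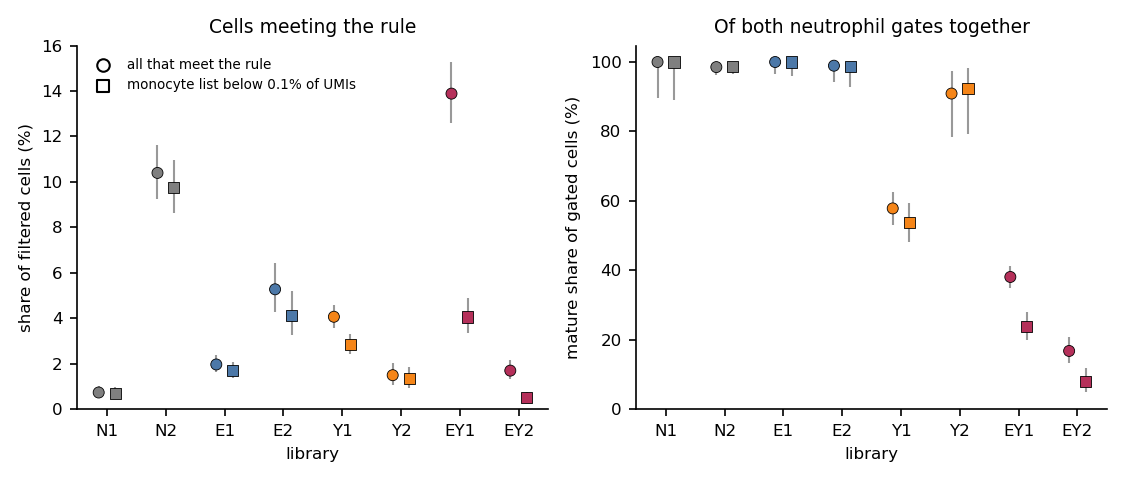
Share of filtered cells that met the rule (left) and mature share of both neutrophil gates (right) by library, in percent, with 95% Clopper-Pearson intervals that cover counting error only; circles are all gated cells and squares those with the monocyte list below 0.1% of UMIs. The 4 YAP libraries lie between 16.7% and 90.9% on the right, and the other 4 between 98.5% and 100%.

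By monocyte genes, the label of neutrophil held for most gated cells of N, E and Y. It failed for most in EY1 and EY2 and for many in Y1. A list of 13 monocyte or macrophage genes (among them C1qa, C1qb, C1qc, Adgre1, Csf1r, Ms4a7, Apoe, Ly6c2, Ccr2, Cd68, Fn1, Vcan) took a summed 310 to 852 CPM in the gated cells of N and E, 990 in Y2, 1927 in Y1, 3407 in EY2 and 4526 in EY1. Chosen after these values were seen, a limit of 0.1% of a cell's UMIs on that list split the gated cells into 785 monocyte-low cells (64.0%) and 441 monocyte-high cells. The monocyte-low cells numbered 32 of 34 and 252 of 269 in the N libraries, 93 of 108 and 73 of 93 in E, 171 of 244 and 36 of 40 in Y, and 108 of 370 and 20 of 68 in EY. This split does not judge maturity. In each YAP library most monocyte-low cells held 1 or 2 of the 5 marrow genes, as counted below. In EY1 the monocyte-high cells held a median of 2835 genes and the monocyte-low cells 1176. Of 284 gated cells with over 2000 genes, 5 were monocyte-low. Just inside the limit, 227 cells had 0.05 to 0.1% of UMIs on the list, and just outside, 80 had 0.1 to 0.15%.

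The monocyte-high cells of 3 YAP libraries carried less Retnlg and G0s2 RNA than the monocyte-low cells. Retnlg, a secreted resistin-like protein of granulocytes, measured 928 CPM in the monocyte-high cells of EY1 against 20489.6 in the monocyte-low cells, and G0s2, a lipolysis inhibitor abundant in mature neutrophils, 180.1 against 2695. In Y1 the values were 3087 against 20629.7 CPM of Retnlg and 481 against 4753 of G0s2, and in EY2 1377 against 21333 and 331 against 931. In E2 both genes were higher in the monocyte-high cells, with 2854 against 1627 CPM of Retnlg and 4872 against 3958 of G0s2. Csf3r, which the rule used, measured 1206 against 1227 CPM in E2, 177 against 530 in Y1, 79.3 against 379 in EY1 and 123 against 301 in EY2. These are the 4 libraries with at least 20 cells of both kinds. Among 1364 genes that reached 100 CPM in either kind, leaving genes of the rule and of the monocyte list out of the ranking, the highest median log2 ratios belonged to Chil3 (4.51), Ms4a6d (4.48), Ms4a6c (4.21), S100a10 (4.16), S100a4 (4.07), F13a1 (3.90), Ccl24 (3.84) and Msr1 (3.79). Chil3 is a secreted chitinase-like protein of myeloid cells, F13a1 a coagulation factor subunit and Msr1 a scavenger receptor of macrophages. The lowest were Stfa2 (-3.52), Cstdc5 (-3.46), Cstdc4 (-3.44), Retnlg (-3.34), Prok2 (-2.99), Mmp9 (-2.88), Csta2 (-2.77) and Stfa2l1 (-2.49), among them several stefins, which inhibit cysteine proteases. The split itself used the monocyte list, so these ratios are a description. Below, each result is given for all gated cells with its test and for the monocyte-low cells as values without a p.

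**Figure D2:**
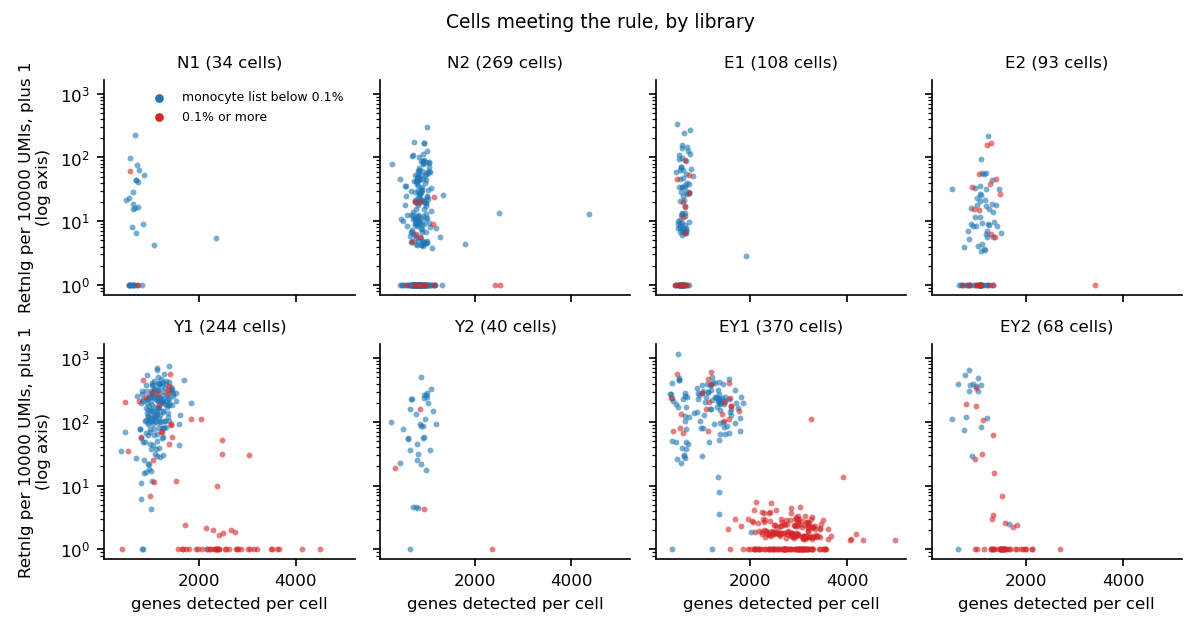
Each point is 1 gated cell, with genes detected on the x axis and Retnlg per 10000 UMIs, plus 1, on the log y axis, in a panel per library; blue cells had the monocyte list below 0.1% of UMIs and red cells 0.1% or more. EY1 shows a red group with over 2000 genes and little Retnlg beside a group with under 2000 genes and much Retnlg, and the 4 libraries without YAP hold 6 cells with over 2000 genes in all.

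Cells next to each limit of the rule were numerous. Among cells that met the rest of the rule, 566 held exactly 2 of the 4 mature genes and 587 held 1. With respect to the marrow genes, 215 cells held 2 of 5 and 305 held 3. The S100 limit had 35 cells at 10 to 14 UMIs and 45 at 5 to 9. Treml4, a receptor of the TREM family, was the scarcest of the 4 mature genes, detected in 17.6 to 35.3% of gated cells of N and E and in 7.5 to 11.1% of those of Y and EY.

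The genes of the rule differed among libraries, which describes the choice and is no test. Values here and below are CPM from the summed counts of a library's cells, scaled with TMM factors, which correct for a few dominant genes. Exceptions, without TMM scaling, are T cells, cells split by marrow genes, monocyte-high beside monocyte-low cells, and the mature beside the immature gate. The same cells can therefore differ in value between passages. In the monocyte-low cells Csf3r measured 777 and 1137 CPM in N, 1039 and 1094 in E, 599 and 699.7 in Y, and 426 and 349.6 in EY. Treml4 measured 237 and 135 CPM in N, 131 and 112 in E, 18.2 and 30.4 in Y, and 6.56 and 0 in EY, with the YAP libraries lowest. Hdc overlapped, at 974 to 2615 CPM without YAP and 832 to 1765 with it, and so did Cxcr2, at 579 to 852 and 333 to 1034 CPM. S100a8 measured 19411 to 42964 CPM without YAP and 124478 to 143390 CPM with it, and Ngp, a marrow granule protein of which the rule allows some, 0 to 3.82 and 335 to 4844 CPM.

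Summed over all gated cells, many genes differed with YAP. Of 3463 genes tested outside the rule, 363 (10.5%) rose and 341 (9.85%) fell in the 4 YAP libraries relative to the 4 others (edgeR quasi-likelihood test, additive in YAP and E6-E7, adjusted p under 0.05). The summed counts ran from 64512 UMIs in N1 to 4157299 in EY1, so N1 was measured least precisely. The number called moved with single libraries, from 288 without Y1 to 1260 without Y2, and was 495 without N2, 296 without E2, 328 without EY1 and 386 without EY2. Losses of single calls are given below for some genes only, so a gene without them is not thereby shown to be stable. The monocyte list moved with the same contrast: 7 of its 10 tested genes rose, 0 fell, and its median log2 change was 2.09 against 0.05 over all genes tested. Its part in each result of all gated cells was not tested. In the monocyte-low cells, 185 of 2126 genes (8.7%) were higher and 180 (8.47%) lower in all 4 YAP libraries than in each of the 4 others. Of the genes that rose in all gated cells, 166 were measured well enough in the monocyte-low cells, and 86 of them were higher there without overlap. Of those that fell, 131 of 269 were lower there without overlap. In 174 of the 363 genes that rose, the other filtered cells of the YAP libraries had a higher level than the gated cells.

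The largest rises in all gated cells, by the naming rule, were Ccl24, a chemokine for eosinophils (7.67 ± 1.05, SE, edgeR adjusted p = 0.00148 on the log2 scale), Adora2b, an adenosine receptor (6.18 ± 0.68), Prok2, a secreted chemoattractant also called Bv8 (5.75 ± 0.72), Acvrl1, a receptor of the TGF-beta family (5.59 ± 0.72), Ccl9, a chemokine (5.11 ± 0.70), Ccr2, the chemokine receptor of inflammatory monocytes (5.10 ± 0.82), Pld4 (5.07 ± 0.64) and Ms4a6d (4.59 ± 0.71). Fitted changes of genes at or near 0 in 1 arm depend on the prior count and are no bound. Ccl24 measured 13.4 and 0 CPM in N, 0 and 0 in E, 174 and 92.9 in Y, and 391 and 70.6 in EY. In the monocyte-low cells it measured 0 to 8.39 CPM with YAP, and Ccr2 0 to 1.4 CPM, so neither was elevated there. Prok2 measured 0 and 2.55 CPM in N, 0 and 0 in E, 165 and 162 in Y, and 192 and 283 in EY in the monocyte-low cells. Acvrl1 measured 0 and 2.55 CPM in N, 0 and 0 in E, 234 and 213 in Y, and 65.6 and 117 in EY in the same cells. For both genes the YAP libraries lay above all others, which held 2 UMIs in N2 and 0 in N1, E1 and E2. Monocyte-low cells without a marrow gene held 2 Prok2 UMIs each in N2, Y1 and EY1, 1 in Y2 and 0 in the rest.

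The largest falls were Ifit1bl2 (-6.14 ± 0.76, SE, edgeR adjusted p = 0.00117), Gm39321 (-4.25 ± 0.72), Prr5l (-4.05 ± 0.49), Cd300lb (-3.45 ± 0.64), Ltb, lymphotoxin beta (-3.45 ± 0.63), Armc3 (-3.40 ± 0.49), the noncoding RNA Mirt1 (-3.04 ± 0.59) and Osgin1 (-2.97 ± 0.55). Prr5l, which encodes an mTORC2-binding protein, measured 107 and 49.1 CPM in N, 48.3 and 70.9 in E, 2.05 and 0 in Y, and 4.54 and 6.42 in EY. All 8 were lower without overlap in the monocyte-low cells as well. Ltb is also a lymphocyte gene, and T cells of these libraries held 603 to 1181 CPM without YAP and 947 to 1391 with it.

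Late-differentiation genes are used by neutrophils as they leave the marrow. Of 19 tested, 8 rose and 3 fell with YAP in all gated cells, against 10.5% and 9.85% of all genes. The median log2 change was 0.86 against 0.05 over all genes tested. EY against N gave 4 higher and 5 lower in all gated cells, with a median of -0.695 against 0.071. For E6-E7 the median was -0.953, with 0 called. In the monocyte-low cells 7 of 19 were higher and 2 lower with YAP without overlap, against 8.7% and 8.47% of all genes. The median log2 difference there was 2.24 against 0.03. Retnlg (chromosome 16, 48872621 to 48874496, GRCm38) measured 2094 and 1901 CPM in N, 3129 and 1450.1 in E, 23310.4 and 16703 in Y, and 23030.4 and 24786 in EY. All 4 YAP libraries lay far above the rest. In all gated cells it measured 2234 and 1961 CPM in N, 3301 and 1835 in E, 12758 and 15816 in Y, and 3159 and 5963 in EY, with overlap, and rose by 1.80 ± 0.46 (SE, edgeR adjusted p = 0.0186). This call was lost without N1 (0.0526), N2 (0.0799), E2 (0.0596) or Y1 (0.0538), with the edgeR adjusted p in parentheses. Wfdc17, a relative of secreted antiproteases, measured 2331 and 1164 CPM in N, 1698 and 1053 in E, 18321 and 18487 in Y, and 21587 and 13799.7 in EY in the monocyte-low cells, and rose in all gated cells by 2.33 ± 0.40 (SE, edgeR adjusted p = 0.00364). Its relative Wfdc21 measured 224 to 740.3 CPM without YAP and 5058 to 6159 with it. The interferon-inducible membrane proteins Ifitm1 and Ifitm6 were higher in the same way, Ifitm1 at 1349.8 to 2799 and 8879 to 10435 CPM and Ifitm6 at 81.5 to 184 and 1166 to 3396 CPM. In all gated cells Ifitm1 rose by 1.55 ± 0.42 (SE, edgeR adjusted p = 0.0249). This call was lost without N2 (0.0796), E2 (0.0866), Y1 (0.0513) or EY2 (0.0947), with the edgeR adjusted p in parentheses. In monocyte-low cells without a marrow gene the arms overlapped for Ifitm1, at 3422 CPM in N1 and 2460 in E1 against 2615 in EY1 and 2882 in EY2. Lst1, a leukocyte membrane protein, lay the other way, at 487 to 2449 CPM without YAP and 225 to 365 with it, as did Msrb1, a methionine sulfoxide reductase, at 1712 to 2646 and 1232 to 1486 CPM.

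Promoters are shown for Retnlg and Lcn2, the called late-differentiation and secondary granule genes whose promoters hold the letters below. Each promoter runs from 250 bases before to 50 after the RefSeq start in GRCm38.p6. Capitals mark TTGCNNAA, searched on both strands, the letters bound by C/EBP factors, which drive granulocyte genes. Retnlg lies at chr16:48872358-48872657 on the plus strand and Lcn2 at chr2:32387690-32387989 on the minus strand.
Retnlg: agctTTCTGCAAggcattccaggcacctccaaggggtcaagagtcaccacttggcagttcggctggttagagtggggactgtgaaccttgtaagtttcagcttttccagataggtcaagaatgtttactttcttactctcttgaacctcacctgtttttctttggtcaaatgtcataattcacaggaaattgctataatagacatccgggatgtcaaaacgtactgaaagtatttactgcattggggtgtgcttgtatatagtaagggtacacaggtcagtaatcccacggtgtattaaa
Lcn2: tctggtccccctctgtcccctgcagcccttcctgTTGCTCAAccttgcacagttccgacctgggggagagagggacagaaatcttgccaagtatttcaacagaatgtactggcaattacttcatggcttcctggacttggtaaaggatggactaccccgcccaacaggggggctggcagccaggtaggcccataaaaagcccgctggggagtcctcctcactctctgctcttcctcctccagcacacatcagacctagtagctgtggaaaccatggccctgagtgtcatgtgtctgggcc
The letters stood in 3 of 17 late-differentiation promoters, 1 of 6 secondary granule promoters and 10.8% of 32851 promoters, which is a description of letters and not of a site.

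Retnlg in T cells of the same libraries was 0 to 1.15 CPM without YAP and 0.635 to 103 with it, and its source there was not tested. When each cell was thinned to 500 UMIs, Retnlg was detected in 34.2 to 48.4% of monocyte-low cells without YAP and 80 to 94.4% with it, against 0 to 7.36% of T cells over all libraries. Without thinning the shares were 62.5 to 69.9% and 85 to 98.2%. Median depth in the monocyte-low cells was 1519 to 3601 UMIs without YAP and 3268 to 4750 with it, and in T cells 2576 to 7888.

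Within the YAP libraries, Retnlg also went with the marrow genes that the rule allows. Of the monocyte-low cells, 124 of 171 in Y1, 23 of 36 in Y2, 97 of 108 in EY1 and 16 of 20 in EY2 held 1 or 2 of the 5 marrow genes, against 2 of 32 in N1, 30 of 252 in N2, 10 of 93 in E1 and 14 of 73 in E2. Monocyte-low cells with 1 or 2 of them held 24307 and 18359 CPM of Retnlg in Y and 21153 and 28944 in EY, and those with none 7989, 3715, 7442 and 54.4 CPM, the last from 4 cells and 1 UMI. Cells with none held 2622 and 2243 CPM in N and 3498 and 1043 in E, so Y1, Y2 and EY1 lay above them and EY2 below. Without YAP, cells with 1 or 2 held 1869 CPM in N1 (2 cells), 1817 in N2, 3148 in E1 and 3812 in E2. That was less than in cells with none in N1, N2 and E1, and more in E2. Over all gated cells with none of the marrow genes, the Retnlg difference turned to -1.99 on the log2 scale. Y2, with 17 such cells, was left out of this fit, so Y1 was its only Y library. In EY1, 112 of those cells were monocyte-high, with 144 CPM of Retnlg, and 11 were monocyte-low.

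**Figure D3:**
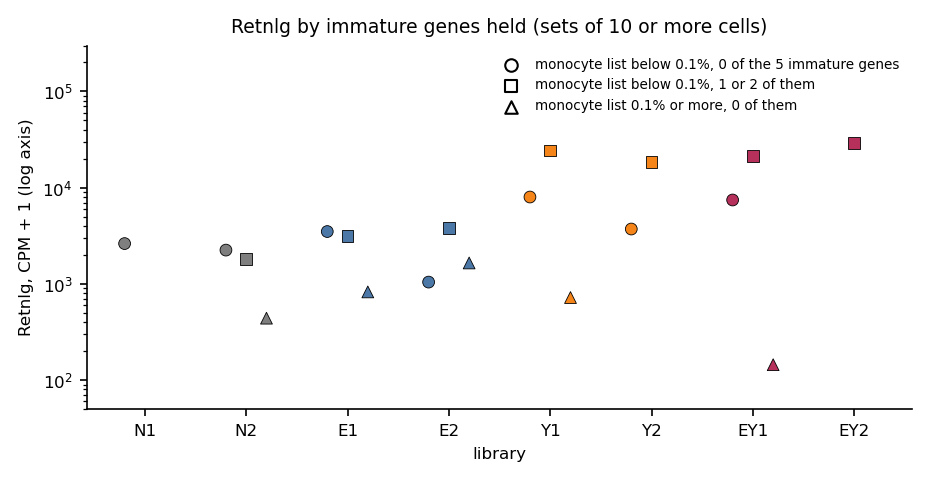
Retnlg as CPM plus 1 (log y axis) by library for sets of 10 or more cells: monocyte-low cells with none of the 5 marrow genes (circles) or with 1 or 2 (squares), and monocyte-high cells with none (triangles). The squares of Y1, Y2, EY1 and EY2 lie from 18359 to 28944 CPM, above every circle.

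Granules are filled in order during marrow development. Of 6 primary granule genes, 0 were measured well enough for the YAP test, with Mpo at 0 to 0.682 CPM and Elane at 0 to 5.22 CPM over all libraries. In EY against N 1 was tested, Prtn3, and it was called higher by edgeR (log2 change 5.33). Of 7 secondary granule genes tested outside the rule, 2 rose and 0 fell, against 10.5% and 9.85% of all genes. In the monocyte-low cells 4 were higher without overlap, against 8.7% of all genes. Lcn2 (chromosome 2, 32384633 to 32388252), the siderophore-binding lipocalin, measured 382 and 614 CPM in N, 566 and 571 in E, 7426 and 4178 in Y, and 7791 and 16912 in EY in the monocyte-low cells. Every YAP library exceeded every other, and Lcn2 rose in all gated cells by 3.17 ± 0.41 (SE, edgeR adjusted p = 0.00126). Chil3 measured 0 and 2.55 CPM in N, 0 and 0 in E, 183 and 10.1 in Y, and 1122 and 7341 in EY in the monocyte-low cells and rose by 5.44 ± 1.35 (SE, edgeR adjusted p = 0.017) in all gated cells. In EY1 the monocyte-high cells held 15215 CPM of Chil3 and the monocyte-low cells 998. Hp, haptoglobin, measured 514 to 975 CPM without YAP and 1034 to 1998 with it in the monocyte-low cells and missed the test in all gated cells (0.72 ± 0.37, SE, edgeR adjusted p = 0.169). Of 9 tertiary granule and protease genes, Mmp8, neutrophil collagenase, rose (3.27 ± 0.37, SE, edgeR adjusted p = 0.00106) and 0 fell. The count of rises was near the 10.5% of all genes. Mmp8 measured 39.5 and 89.1 CPM in N, 56 and 67.9 in E, 778 and 649 in Y, and 1704 and 1881 in EY in the monocyte-low cells, without overlap. The gelatinase Mmp9 overlapped, at 198 to 307 and 293 to 639 CPM. Thinned to 500 UMIs, Mmp8 was detected in 3.12 to 5.48% of monocyte-low cells without YAP and 19.3 to 45% with it, against 0 to 1.31% of T cells, and unthinned in 8.6 to 17.8% and 50 to 85.2%. In monocyte-low cells without a marrow gene the arms overlapped for Mmp8, at 110 CPM in N2 against 85.1 in Y2 (3 UMIs). Y1, EY1 and EY2 measured 313, 965 and 598 CPM there. Of 6 oxidase and extracellular trap genes, 0 passed the edgeR test.

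Of 10 tested chemoattractant receptors, which steer a neutrophil, 2 rose and 3 fell, and of 12 adhesion and Fc receptors 1 rose and 3 fell, against 10.5% and 9.85% of all genes tested. Cxcr4 measured 277 and 386 CPM in N, 342 and 418 in E, 57.4 and 122 in Y, and 48.1 and 0 in EY in the monocyte-low cells. The YAP libraries were lowest without overlap, and all gated cells gave -2.83 ± 0.58 (SE, edgeR adjusted p = 0.00688). T cells held 92.3 to 146 CPM without YAP and 49.4 to 185 with it, so the monocyte-low cells of each YAP library were below the T cells of the same library. Icam1, an integrin ligand of activated neutrophils, measured 1251 and 661 CPM in N, 672 and 879.6 in E, 248 and 294 in Y, and 225 and 149.8 in EY in the monocyte-low cells, and fell in all gated cells by 1.76 ± 0.34 (SE, edgeR adjusted p = 0.00521). The integrin subunit Itga4 measured 80.9 to 145 CPM without YAP and 8.39 to 17.5 with it and fell by 1.61 ± 0.39 (SE, edgeR adjusted p = 0.0148). Ltb4r1, the leukotriene B4 receptor, lay the other way, at 61.1 to 145 and 193 to 483 CPM, and rose by 1.71 ± 0.41 (SE, edgeR adjusted p = 0.015). Itgam, the CD11b integrin, measured 145 to 339.6 and 422 to 553 CPM and missed the test in all gated cells (0.66 ± 0.34, SE, edgeR adjusted p = 0.174). The formyl peptide receptors Fpr1 and Fpr2 overlapped, Fpr1 at 182 to 435 and 117 to 1045 CPM and Fpr2 at 267 to 414 and 283 to 527 CPM.

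Genes linked to suppressive neutrophils, often called PMN-MDSC, had no common direction. Of 14 tested, 3 rose and 5 fell, against 10.5% and 9.85% of all genes, with a median log2 change of -0.74. Nos2, inducible nitric oxide synthase, was at 0 UMIs in the monocyte-low cells of all 4 libraries without YAP and measured 178 and 20.3 CPM in Y and 206 and 766 in EY. In all gated cells it rose by 5.35 ± 1.03 (SE, edgeR adjusted p = 0.00523). Ptgs2, the inducible cyclooxygenase, measured 514 and 1066 CPM in N, 734 and 1501 in E, 185 and 172 in Y, and 287 and 316 in EY in the monocyte-low cells, without overlap. In all gated cells it fell by 1.27 ± 0.37 (SE, edgeR adjusted p = 0.0327). This call was lost without N2 (0.112), E2 (0.127), Y1 (0.0633), EY1 (0.0798) or EY2 (0.102), with the edgeR adjusted p in parentheses. Thinned to 500 UMIs, it was detected in 23.7 to 41.1% of monocyte-low cells without YAP and 5 to 6.48% with it, against 0 to 0.793% of T cells, and unthinned in 43 to 72.6% and 15 to 31.5%. Clec4n, the fungal receptor Dectin-2, measured 541 to 1725 and 66.6 to 274 CPM and fell by 2.21 ± 0.44 (SE, edgeR adjusted p = 0.00615). Cd84, a SLAM-family receptor, measured 158 to 207 and 16.6 to 101 CPM and fell by 1.91 ± 0.45 (SE, edgeR adjusted p = 0.0141). This call was lost without EY1 (0.068) or EY2 (0.0517), with the edgeR adjusted p in parentheses. Cd274, which encodes PD-L1, overlapped in the monocyte-low cells, at 353 to 869 and 233 to 411 CPM, and fell in all gated cells by 1.11 ± 0.33 (SE, edgeR adjusted p = 0.0371). This call was lost without N1 (0.0752), E1 (0.0894), E2 (0.0801), Y1 (0.11), EY1 (0.0934) or EY2 (0.119), with the edgeR adjusted p in parentheses. Of the arginases, Arg1 was too low for the YAP test, at 0 to 70.3 CPM over all libraries, but was called higher in EY against N by edgeR. Arg2 overlapped in the monocyte-low cells, at 289.7 to 355 and 233 to 507 CPM.

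Secreted cytokines and chemokines split, with 4 of 17 tested genes higher and 1 lower by the test and a median log2 change of 0.01. The shares over all genes were 10.5% and 9.85%. Il1b, interleukin 1 beta, was among the most abundant transcripts and overlapped in the monocyte-low cells, at 15223 to 22131 CPM without YAP and 6242 to 15699 with it (all gated cells -0.96 ± 0.33, SE, edgeR adjusted p = 0.0598). Cxcl2, a ligand of Cxcr2, overlapped at 23809 to 36569 and 22089.5 to 51102 CPM. Cxcl3, another Cxcr2 ligand, measured 250.2 and 917 CPM in N, 591 and 285 in E, 3643 and 5344 in Y, and 2095 and 1615 in EY in the monocyte-low cells. The YAP libraries were higher without overlap, and all gated cells gave 2.19 ± 0.51 (SE, edgeR adjusted p = 0.0132). This call was lost without E2 (0.0542) or EY2 (0.0543), with the edgeR adjusted p in parentheses. Il1a, interleukin 1 alpha, measured 105 to 473 and 623 to 1156 CPM and rose by 1.81 ± 0.45 (SE, edgeR adjusted p = 0.0165). Csf3, the ligand of Csf3r, rose in all gated cells by 3.38 ± 0.83 (SE, edgeR adjusted p = 0.0166) but overlapped in the monocyte-low cells, at 3.4 to 52.7 and 0 to 365 CPM. Among 5 tested genes of histamine and lipid mediators outside the rule, 3 rose and 1 fell, against the same shares. Alox5ap, the partner of 5-lipoxygenase in leukotriene synthesis, measured 566 to 703 and 2616 to 3589 CPM and rose by 1.57 ± 0.31 (SE, edgeR adjusted p = 0.00592).

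**Figure D4:**
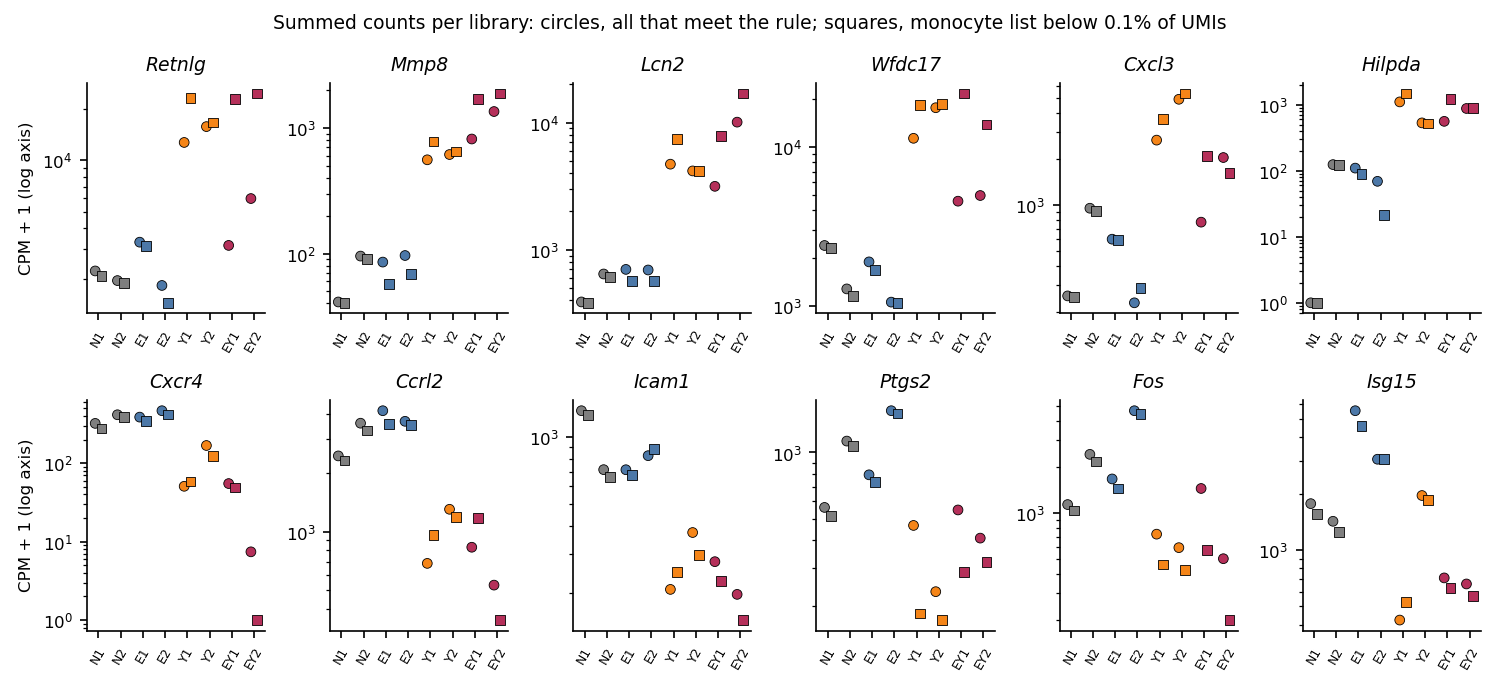
CPM plus 1 (log y axis) of 12 genes by library, from the summed counts of all gated cells (circles) and of monocyte-low cells (squares), coloured by group. In the squares of Y1, Y2, EY1 and EY2, Retnlg, Mmp8, Lcn2, Wfdc17, Cxcl3 and Hilpda lie above the other libraries and Cxcr4, Ccrl2, Icam1, Ptgs2 and Fos below them, while Isg15 overlaps.

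Of 18 glycolytic and low-oxygen genes tested, 7 rose and 0 fell, against 10.5% and 9.85% of all genes. The median log2 change was 1.19 against 0.05. In the monocyte-low cells 7 of 17 were higher without overlap, against 8.7% of all genes. Slc2a1, the glucose transporter GLUT1, measured 105 and 129.9 CPM in N, 149 and 102 in E, 353 and 203 in Y, and 265 and 316 in EY in the monocyte-low cells and rose in all gated cells by 0.99 ± 0.30 (SE, edgeR adjusted p = 0.0393). Gapdh, a glycolytic enzyme, measured 500.4 to 652 CPM without YAP and 1623 to 2896 with it and rose by 1.65 ± 0.31 (SE, edgeR adjusted p = 0.00488). Ldha, lactate dehydrogenase A, measured 156 to 237 and 284 to 1382 CPM and rose by 1.34 ± 0.37 (SE, edgeR adjusted p = 0.0266). Ero1l, an oxidase of the endoplasmic reticulum, measured 71.3 to 158 and 172 to 1115 CPM and rose by 1.85 ± 0.45 (SE, edgeR adjusted p = 0.0156). Y2 was the lowest YAP library for each of these 4 genes. Hilpda, a lipid-droplet protein of the tumour-neutrophil list, measured 0 and 119.7 CPM in N, 87.1 and 20.4 in E, 1479 and 517 in Y, and 1214 and 882 in EY in the monocyte-low cells and rose in all gated cells by 3.21 ± 0.55 (SE, edgeR adjusted p = 0.00354). T cells of these libraries held 54.3 to 90.9 CPM of Hilpda without YAP and 141 to 178 with it, 997 to 1188 and 1425 to 1685 CPM of Gapdh, and 481 to 548 and 654 to 894 CPM of Ldha, so T cells of the YAP libraries were higher too.

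The promoter of Slc2a1, at chr4:119108495-119108794 on the plus strand, is shown for this list, with the hypoxia response core ACGTG or GCGTG in capitals, searched on both strands.
Slc2a1: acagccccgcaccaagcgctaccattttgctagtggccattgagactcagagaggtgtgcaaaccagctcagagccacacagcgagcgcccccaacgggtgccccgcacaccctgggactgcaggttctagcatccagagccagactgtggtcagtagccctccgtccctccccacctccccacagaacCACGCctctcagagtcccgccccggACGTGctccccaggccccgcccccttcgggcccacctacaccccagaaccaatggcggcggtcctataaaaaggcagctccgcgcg
The core stood in 15 of 17 promoters of the list and in 43.8% of all promoters.

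Of 20 early-response and NF-kB target genes tested, 0 rose and 10 fell, against 10.5% and 9.85% of all genes. The median log2 change was -1.06 against 0.05. In the monocyte-low cells 7 were lower without overlap, against 8.47% of all genes. Fos, a subunit of AP-1, measured 1040.3 and 2169.8 CPM in N, 1449 and 4435 in E, 462 and 426 in Y, and 577 and 199.8 in EY in the monocyte-low cells and fell in all gated cells by 1.56 ± 0.44 (SE, edgeR adjusted p = 0.0302). Dusp1, a MAP kinase phosphatase, measured 2239 to 4962 CPM without YAP and 533 to 1653 with it and fell by 1.93 ± 0.38 (SE, edgeR adjusted p = 0.00578). Dusp2 measured 421 to 697 and 17.5 to 91.3 CPM and fell by 1.45 ± 0.33 (SE, edgeR adjusted p = 0.0114). Zfp36, which destabilises cytokine mRNA, measured 1325 to 3345 and 216 to 772 CPM and fell by 1.74 ± 0.42 (SE, edgeR adjusted p = 0.0149). In T cells Fos was 379.7 to 587 CPM without YAP and 200.2 to 489 with it, and Dusp1 370.1 to 522 and 207 to 439 CPM. Of 14 survival and apoptosis genes 0 rose and 3 fell, namely Birc3, Fas and Gadd45b, against 10.5% and 9.85% of all genes. Birc3, an inhibitor of apoptosis, measured 289.7 and 323 CPM in N, 286 and 295 in E, 93.7 and 81.1 in Y, and 80.9 and 33.3 in EY in the monocyte-low cells and fell in all gated cells by 1.84 ± 0.30 (SE, edgeR adjusted p = 0.00281).

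Among 8 genes of aged and tumour neutrophils 2 rose and 3 fell, against 10.5% and 9.85% of all genes. Ccrl2, a chemerin-binding receptor, measured 2318 and 3312 CPM in N, 3564 and 3532 in E, 959.8 and 1187 in Y, and 1172 and 349.6 in EY in the monocyte-low cells. The YAP libraries were lower without overlap, and all gated cells gave -2.08 ± 0.36 (SE, edgeR adjusted p = 0.00364). Lgals3, galectin 3, lay the other way, at 1053 to 1253 and 1552 to 2879.8 CPM, and rose by 1.04 ± 0.30 (SE, edgeR adjusted p = 0.0312). Siglecf, a sialic acid receptor of eosinophils and some tumour neutrophils, was too low to test, at 0 to 18.6 CPM over all libraries. Of 10 transcription factors Irf8 rose, and Cebpd and Maff fell, against 10.5% and 9.85% of all genes. Cebpd, of the C/EBP family, measured 145 to 319 and 49.9 to 112 CPM and fell by 2.25 ± 0.40 (SE, edgeR adjusted p = 0.00416). Irf8, a monocyte-lineage factor, rose by 2.99 ± 0.54 (SE, edgeR adjusted p = 0.00426) in all gated cells and overlapped in the monocyte-low cells, at 0 to 37.3 and 0 to 49.9 CPM. Of 4 cell cycle genes tested, 0 passed.

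Of 19 interferon-stimulated genes tested, 0 rose and 5 fell, against 10.5% and 9.85% of all genes. The median log2 change was -1.56 against 0.05. In the monocyte-low cells 3 of 18 were lower without overlap, against 8.47% of all genes. Oasl2, an oligoadenylate synthase homologue, measured 329 and 379 CPM in N, 591 and 608 in E, 164 and 203 in Y, and 197 and 49.9 in EY in the monocyte-low cells and fell in all gated cells by 2.49 ± 0.50 (SE, edgeR adjusted p = 0.00612). Gbp2, a guanylate-binding protein, measured 3318 and 719 CPM in N, 1039 and 2472 in E, 418 and 477 in Y, and 588 and 149.8 in EY in the monocyte-low cells and fell by 2.11 ± 0.54 (SE, edgeR adjusted p = 0.0197). Isg15, a ubiquitin-like modifier, measured 1554 and 1240.2 CPM in N, 4572 and 3056 in E, 526 and 1846 in Y, and 626 and 566 in EY in the monocyte-low cells, highest in both E libraries, and missed the test for YAP (-1.56 ± 0.57, SE, edgeR adjusted p = 0.0694). T cells held 819 and 528 CPM of Isg15 in E1 and E2 and 85.7 to 249.6 CPM in the other libraries.

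Gbp2 and Stat2 are the genes of this list that fell and whose promoters hold an interferon response element, written GAAA, any 2 bases and GAAA, in capitals, searched on both strands. Gbp2 lies at chr3:142620413-142620712 and Stat2 at chr10:128270248-128270547, both on the plus strand.
Gbp2: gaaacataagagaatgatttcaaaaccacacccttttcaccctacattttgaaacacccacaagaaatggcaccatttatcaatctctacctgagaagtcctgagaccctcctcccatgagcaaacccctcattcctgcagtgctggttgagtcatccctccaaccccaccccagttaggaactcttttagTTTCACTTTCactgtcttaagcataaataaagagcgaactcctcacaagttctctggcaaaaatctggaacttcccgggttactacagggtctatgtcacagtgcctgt
Stat2: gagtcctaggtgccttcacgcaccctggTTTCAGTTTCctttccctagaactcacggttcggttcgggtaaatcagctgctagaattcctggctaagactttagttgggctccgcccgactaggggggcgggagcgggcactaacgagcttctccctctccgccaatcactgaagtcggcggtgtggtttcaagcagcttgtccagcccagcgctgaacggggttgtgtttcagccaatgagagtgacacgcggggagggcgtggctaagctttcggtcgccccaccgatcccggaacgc
The letters stood in 7 of 17 promoters of the list and in 3.44% of all promoters.

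**Figure D5:**
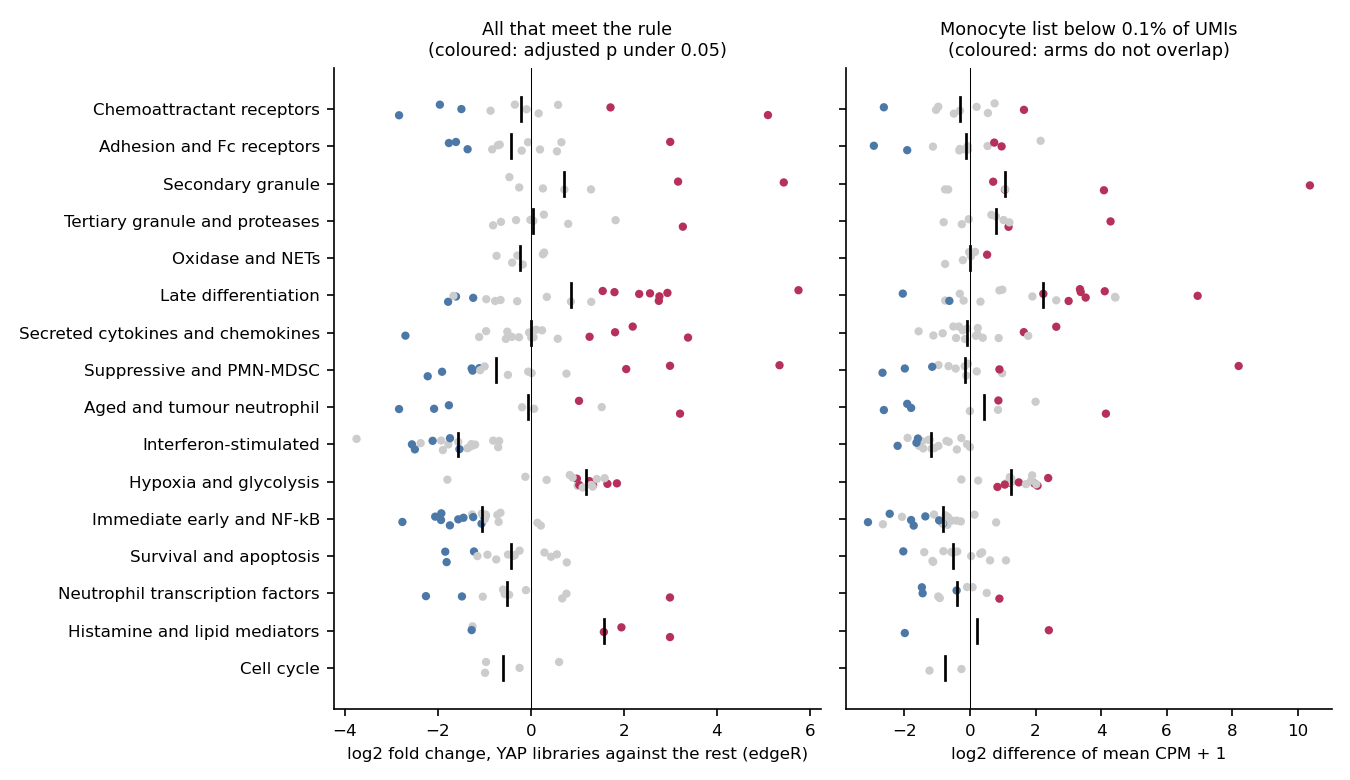
Each point is 1 gene of the list named at the left and each black bar a list median, as log2 change with YAP in all gated cells (left, coloured where the adjusted p was under 0.05) and as log2 difference of mean CPM plus 1 in the monocyte-low cells (right, coloured where the arms did not overlap). Medians of late differentiation (0.86 and 2.24) and of hypoxia and glycolysis (1.19 and 1.26) lie right of 0 in both panels, and those of interferon-stimulated (-1.56 and -1.20) and of immediate early and NF-kB genes (-1.06 and -0.83) left of it.

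E6-E7 gave 0 called genes among 3463 (0.0%) by edgeR, with 213 at an unadjusted p under 0.05 and 1 called by DESeq2. The interaction of YAP with E6-E7 gave 0 of 4005 (0.0%) by edgeR, with 290 at an unadjusted p under 0.05 and 17 called by DESeq2. EY against N, which shares its libraries with the YAP comparison, gave 381 of 4005 genes higher (9.51%) and 338 lower (8.44%) by edgeR, and 40 in all without N2. The named rises were Nos2, F13a1, Vcan, Chil3 and Saa1. Nos2 and Saa1 had 0 UMIs in N1 and N2, as did F13a1 and Vcan, so no fold is given. In EY1 and EY2 Nos2 measured 523 and 1261 CPM, F13a1 440.1 and 686, Vcan, a matrix proteoglycan of monocytes, 324 and 273 and the acute-phase protein Saa1 11.6 and 491. The named falls were Ifit1bl2 (-6.23 ± 0.91, SE, edgeR adjusted p = 0.00284), Gm39321, 4732465J04Rik, Gm39459 and Cd300lb. All these calls were lost without N2, except those of Ifit1bl2 and Gm39321.

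Within Y1, EY1 and EY2, which had at least 20 cells of both gates, the mature gate was set beside the immature gate. Both were chosen by their own transcripts, so the ratios carry no test. In all gated cells the highest median log2 ratios of mature to immature among 1221 genes included Saa3 (4.34), Sdc4 (4.25), Saa1 (4.17), Fn1 (4.05), Ms4a6c (3.97), Ccl24 (3.77) and Ms4a4c (3.75). The lowest were Pglyrp1 (-2.55), Olfm4 (-2.53), Mmp9 (-2.46), Mrgpra2b (-2.42), Ceacam10 (-2.38), Ggt1 (-2.35), Syne1 (-2.33) and Serpinb1a (-2.29), led by granule proteins. With the monocyte list below 0.1% in both gates, the serum amyloid gene Saa3 (3.54) was highest and Saa1 (3.08) followed. Saa3 measured 2406 against 198 CPM in Y1, 4359 against 1538 in EY1 and 14743 against 544 in EY2. Saa1 measured 1.95 against 3.59 CPM in EY1, the opposite direction to Y1 and EY2. After these came F10 (1.86), Ero1l (1.84), Bnip3 (1.83), Ptgs2 (1.76), Basp1 (1.68) and Bsg (1.67). Lowest were Aldh2 (-1.70), Chil3 (-1.56), Ifitm6 (-1.41), Lyz2 (-1.27), Serpinb1a (-1.26), Ly6c2 (-1.16), Anxa1 (-1.11) and Ggt1 (-1.10). Retnlg measured 20629.7 against 29595 CPM in Y1, 20489.6 against 25897 in EY1 and 21333 against 19418 in EY2, mature before immature, with no common direction.

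Lists of other cell types gave further values beside these results. Eosinophil genes took a summed 0 to 20 CPM of the gated cells, here without TMM scaling, mast or basophil genes 0 to 30, and B or plasma cell genes 0 to 66. T or NK cell genes took 109 to 729 CPM in N and E and 15 to 195 in Y and EY, and epithelial genes 574 to 2357 over all libraries, with 0 of 9 tested epithelial genes past the edgeR test. Dendritic or Langerhans genes took 328 to 2859 CPM in all gated cells and 204 to 749 in the monocyte-low cells. Erythroid or platelet genes took 5208 and 10198 CPM in N, 36 and 16865 in E, 82 and 113 in Y, and 1229 and 9 in EY, and the globin genes Hbb-bt, Hbb-bs and Hba-a1 fell with YAP. Median mitochondrial shares were 0.241 to 0.927% in N, E and Y and 2.82% and 2.46% in EY1 and EY2. The part of these values in the results above was not tested.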

How the data were processed

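Single-cell 3' libraries of mouse tongue epithelium were deposited as count matrices. Per the file headers and the methods, the authors mapped reads to mm10 with cellranger 5.0.0 and counted UMIs per gene, and the deposited counts are whole and not normalized. The labels and the methods name different kit versions. The authors' limits on mitochondrial share, genes and transcripts were used, except for the lower gene limit, which was 200 because many neutrophils hold few genes. No doublet caller was run.

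Cells were gated by the rule in the report. The members and gene lists were chosen with earlier results of these data known. Counts were summed per library and tested with edgeR 4.0.16 (R 4.3.3; TMM factors, quasi-likelihood, libraries with at least 20 cells, genes of the rule left out of the results, Benjamini-Hochberg), and with DESeq2 1.42.0 as an alternative. Shares were compared by exact two-sided permutation tests over libraries (scipy 1.17.1), and intervals and upper limits cover counting error only. The scripts were tested on simulated data. Named genes were, for YAP, the 8 largest rises and falls and, for the other comparisons, the 5 largest, among those called, averaging 50 CPM or more in the higher arm, without overlap and a level in the other cells of that arm no higher than in the gated cells, plus a panel of 44 genes and called members of the lists. Alternatives changed each limit of the rule, the scaling, the filter and the tool, and left out each library in turn. The monocyte limit was added after seeing the data. Library totals were 46483469 to 102427359 UMIs. Of the gene identifiers, 99.8% matched the GENCODE vM21 annotation. Some genes that the naming rule takes are not reported here.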

Additional observations from a re-analysis of the deposited data

Results flagged for a closer look

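T cells served as a measure of S100a8 and S100a9 RNA outside the gated cells, and 4 libraries exceeded the 0 of both N libraries. The source of that RNA was not tested. T cells with 10 or more S100a8 plus S100a9 UMIs made up 60.2% in EY1, 1.57% in EY2, 0.233% in Y1 and 0.167% in E2.

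Some cells passed the limit on S100a8 plus S100a9 but entered neither the mature nor the immature gate. They were 38.9% of such cells in Y2, 46.4% in EY1 and 37.6% in EY2, against 32% in N1 and 9.60% in N2. Groups of 2 libraries were too small to look for single outlying libraries.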

How the results depend on the processing

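No paired analysis was possible because the labels give no replicate numbers, and those used here only name the libraries. The YAP difference in the share of filtered cells (0.693 percentage points) turned to -1.09 with 3 of 4 mature genes required, -2.08 with no marrow gene allowed, -0.328 with cells thinned to 500 UMIs before gating, -0.528 without cells holding UMIs of other types and -1.88 in monocyte-low cells, and leaving out 1 library gave -2.17 to 2.63. The E6-E7 difference turned to -0.264, -0.147, -0.451 and -1.06 with 3 mature genes, no marrow gene, no cells of other types and monocyte-low cells, and leaving out 1 library gave -1.19 to 3.61. Over low-keratin cells the YAP difference was 2.67 with keratins below 0.1% and -4.98 to 0.0163 with 1 library left out, and the E6-E7 difference -0.543 without cells of other types and -0.282 in monocyte-low cells. The YAP difference in mature share was negative throughout, at -61.8 to -37.1 points with 1 library left out, and lost its separation at -41.5 with cells thinned to 500 UMIs (exact permutation p = 0.143) and -33.3 without cells holding UMIs of other types (exact permutation p = 0.286).

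The 704 genes called for YAP became 258 with 3 mature genes, 1389 with no marrow gene, 266 with keratins below 0.1%, 286 thinned, 247 in monocyte-low cells (190 shared with the 704) and 288 to 1260 with 1 library left out, or, within the monocyte-low cells, 220 and 120 on leaving out N1 and then N2, 211 and 91 for E, 87 and 305 for Y, and 106 and 223 for EY. E6-E7 gave 1 with keratins below 0.1%, 1 by DESeq2, 29 with no low-count filter and 0 to 1 with 1 library left out. EY against N (719) gave 179 with 3 mature genes, 330 with keratins below 0.1%, 88 thinned, 80 in monocyte-low cells and 40 to 851 with 1 library left out. The interaction gave 1 with 3 mature genes, 1 with no marrow gene, 5 thinned, 17 by DESeq2, 4 with no low-count filter and 0 to 9 with 1 library left out. Over named genes, 659 values kept direction and threshold, 73 lost the threshold, and Retnlg turned to -1.99 with no marrow gene. Some of these fits used fewer libraries, since those with under 20 cells were dropped. Without cells holding UMIs of other types only N2 had 20 cells, and no gene fit could be made. The cause of these changes was not tested.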
